A study of Mus musculus with 50 samples.

Results

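Colon epithelial cells carrying activated Ras were compared with the parental cells they were made from, gene by gene, in RNA taken from polysomes. The comparison used the 10 arrays titled Ras and the 10 titled YAMC, 20 of the 50 arrays in the series, and 12883 genes were tested. YAMC cells are a low-passage, polyclonal line from the colon of young adult H-2Kb/tsA58 transgenic (Immorto) mice. Every population therefore carries the temperature-sensitive large T antigen tsA58 of simian virus 40 under a promoter that interferon γ induces. Large T keeps the cells dividing at 33 °C with interferon γ and is off at 39 °C without it. Ras cells are a polyclonal population made by retroviral infection of YAMC cells with a Bleo vector and RasV12, an activated Ras. YAMC cells were not infected. Side values come from 10 arrays each of mp53/Ras cells (p53175H and RasV12), mp53 cells (p53175H, a mutant p53, with the Neo vector) and bleo/Neo cells (Bleo and Neo vectors without an oncogene). All were sub-confluent and cycling when RNA was taken, and were kept at 39 °C without interferon γ for 48 h and then for 24 h with 0% serum. Each population was made once, so RasV12, infection and the history of a population cannot be told apart in a comparison with YAMC. The labels number the arrays but do not say that they came from separate cultures, so each p-value speaks for the spread among these arrays, which may be technical.

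Ras proteins are membrane-bound switches that pass signals from growth factor receptors to the RAF, MEK and ERK kinases. ERK induces transcription factors of the AP-1, EGR and ETS families, and it also induces phosphatases and Sprouty proteins that restrain the cascade. Mutations that lock Ras in its active form are common in colon cancer. Polysomal RNA is mRNA bound to several ribosomes, so its level depends on how much transcript a cell has and on how many ribosomes it carries, and these cannot be told apart here, nor can a change per cell from a change in the mix of cells. The introduced genes themselves were not analysed here. The endogenous Ras gene Nras differed by −0.10 ± 0.12, which did not pass, and its other probe sets were at 0.12 and 0.20.

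Values are the log2 of intensities that the authors' table gives on a linear scale, with 1 probe set per gene. Differences are Ras minus YAMC on the log2 scale, and ± is the standard error of the limma fit unless SD is written. A gene was called at a Benjamini-Hochberg adjusted p under 0.05 from that fit. The table runs from 3.04 to 14.26 with a median of 6.44, and a group near the lower end has little room to show a fall. Arrays have no read depth, so their number limits the precision. No array columns were identical.

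Some arrays did not lie nearest the mean of their own label. The array labelled Ras 10 lay 0.489 (root mean square log2 distance) from the mean of the other Ras arrays, 0.275 from the mp53 mean and 0.361 from the YAMC mean. The other 9 Ras arrays lay between 0.170 and 0.282 from the Ras mean. The array labelled YAMC 2 lay 0.517 from the mean of the other YAMC arrays and 0.482 from the mp53 mean, whereas the other 9 YAMC arrays lay between 0.196 and 0.348 from the YAMC mean. Among the mp53 arrays, mp53 10 lay nearer Ras (0.266) than mp53, and mp53 8 lay nearer YAMC (0.362). Of the 50 arrays, 46 lay nearest their own group. The labels were kept as given, and results are given with and without Ras 10 and YAMC 2.

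**Figure D1:**
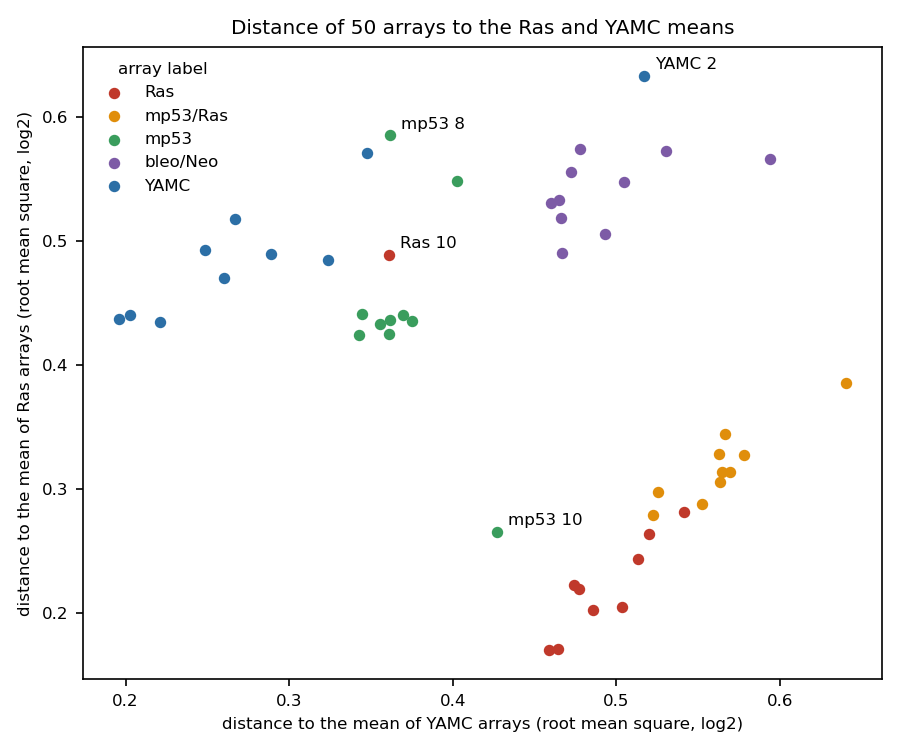
Each point is 1 of 50 arrays, placed by its root mean square log2 distance to the mean of the YAMC arrays (x axis) and to the mean of the Ras arrays (y axis), leaving the array out of its own mean; colours give the label. The array labelled Ras 10 sits among the mp53 arrays, 0.489 from the Ras mean, while the other 9 Ras arrays lie within 0.282 of it.

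Between Ras and YAMC cells 5505 of 12883 genes were called (42.7% of genes tested), 2775 higher in Ras (21.5%) and 2730 lower (21.2%). A change of at least 2-fold was called for 384 genes (2.98%), 167 higher (1.3%) and 217 lower (1.68%). Most called differences were small, with a median size of 0.38 beside 0.18 over all genes tested and a median standard error of 0.092. The median difference of all genes was 0.01. All 10 Ras arrays lay on one side of all 10 YAMC arrays for 538 genes (4.18%), 293 higher (2.27%) and 245 lower (1.9%). Without Ras 10 and YAMC 2, 5782 genes were called (44.9%), 2946 higher (22.9%) and 2836 lower (22.0%), and 470 of them by at least 2-fold (3.65%), 194 higher (1.51%) and 276 lower (2.14%). The 9 and 9 arrays then did not overlap for 1544 genes (12.0%), 752 higher (5.84%) and 792 lower (6.15%). Of the 5505 genes, 5186 passed in the same direction without the 2 arrays and 0 passed in the opposite one, and 378 of the 384 were still called at least 2-fold.

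**Figure D2:**
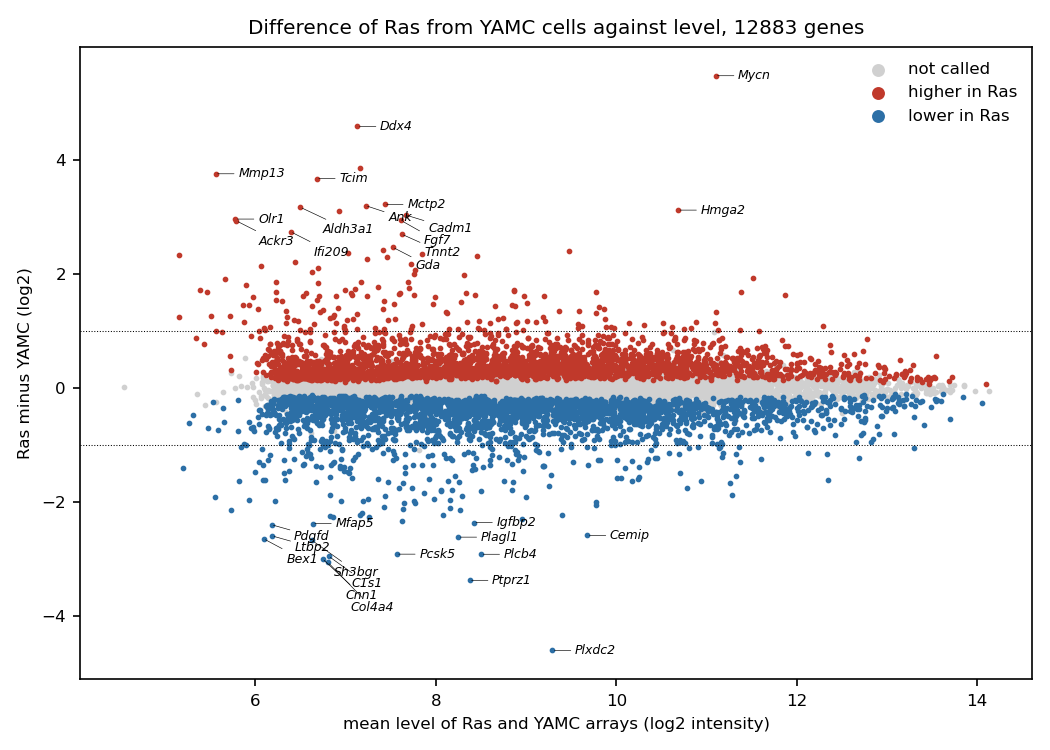
Each point is 1 of 12883 genes, with the mean of its Ras and YAMC levels (log2 intensity) on the x axis and Ras minus YAMC (log2) on the y axis; red points are the 2775 genes called higher and blue points the 2730 called lower, and dotted lines mark 2-fold. The 15 largest rises and 15 largest falls are labelled, and unlabelled points among them have predicted gene names only.

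Genes that answer to the ERK pathway were described by their roles, from inhibitors to targets. The first group holds inhibitors that ERK signalling induces: of 19 tested members 11 rose (57.9%) and 2 fell (10.5%), with a median difference of 0.68 over all 19. Dusp6, a phosphatase that removes the activating phosphates from ERK, had 8.94, 11.76 and 11.90 as its lowest, median and highest level on Ras arrays, against 9.10, 10.50 and 10.97 on YAMC arrays. The lowest value in each group is that of Ras 10 and of YAMC 2. Leaving out Ras 10 and YAMC 2, the groups did not overlap. Dusp6 was 2.24-fold higher in Ras cells (log2 difference 1.16 ± 0.27, adjusted p = 0.000371), and 2.48-fold higher without the 2 arrays. Dusp4, a nuclear phosphatase of ERK, rose by 1.10 ± 0.22, and Errfi1, which inhibits the EGF receptor, rose by 1.13 ± 0.14. Spry2, a Sprouty inhibitor of receptor signalling, rose by 1.17 ± 0.16, although another of its probe sets differed by −0.01. Dusp1, a phosphatase with a preference for the stress kinases p38 and JNK, fell by 0.66 ± 0.12, and Dusp8, of the same preference, fell by 0.37 ± 0.09, with its other probe sets at −0.78 and 0.03. Spry1 (−0.30) and Dusp10 (−0.02) did not pass.

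Transcription factors that ERK induces or activates were less uniform, with 9 of 23 tested members higher (39.1%) and 4 lower (17.4%), at a median of 0.23. The AP-1 subunit gene Fosl1 had 8.41, 10.65 and 10.99 on Ras arrays, against 8.84, 9.16 and 9.99 on YAMC arrays. Ras 10 lay below every YAMC array, and the other 9 Ras arrays lay above them all. Fosl1 rose by 1.22 ± 0.24 (adjusted p = 3.58e-05) and by 1.41 without the 2 arrays. Etv4, an ETS factor, rose by 1.04 ± 0.17, Egr1, a zinc-finger immediate early factor, by 1.03 ± 0.23, and Myc by 0.97 ± 0.17. Elk3, an ETS factor of the ternary complex group, rose by 1.61 ± 0.15 with no overlap between the 10 and 10 arrays. One of the other Elk3 probe sets differed by 0.07. The AP-1 subunit genes Jund (−0.50 ± 0.11) and Fosl2 (−0.43 ± 0.10) and the stress factor gene Atf3 (−0.58 ± 0.20) fell, with another Jund probe set at 0.22. Fos (0.32) and Jun (−0.13) did not pass. Among other genes that ERK induces, 8 of 17 rose (47.1%) and 3 fell (17.6%), at a median of −0.01. They included Ccnd1, the cyclin D1 gene, which had 12.94, 13.19 and 13.40 on Ras arrays, against 11.89, 12.33 and 12.77 on YAMC arrays. Ccnd1 was 1.81-fold higher in Ras cells (0.85 ± 0.10), and no Ras array fell within the YAMC range. Ptgs2, the inducible prostaglandin synthase cyclooxygenase-2, rose by 0.84 ± 0.24 and the adhesion receptor gene Cd44 by 0.63 ± 0.11. The 3 that fell were Vgf (−0.54), Lgals3 (−0.47) and Mcl1 (−0.28). Lgals3 did not pass without Ras 10 and YAMC 2, and other Mcl1 probe sets ranged from −0.43 to 0.30.

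The kinases and switches of the cascade itself moved in both directions, 5 of 16 higher (31.2%) and 4 lower (25%), none by 2-fold. Rasa1, a GTPase-activating protein that switches Ras off, rose by 0.75 ± 0.12 and the scaffold gene Ksr1 by 0.70 ± 0.10, although another Ksr1 probe set differed by −0.23. The kinase genes Braf (−0.58 ± 0.12) and Map2k1 (−0.40 ± 0.08) and the exchange factor gene Sos1 (−0.47 ± 0.07) fell.

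Of 10 tested genes of the EGF family, its receptors and their sheddases, 3 rose and 4 fell. The 3 that rose are ligands of the EGF receptor. Btc, betacellulin, had 6.40, 7.87 and 8.10 on Ras arrays, against 5.85, 6.09 and 6.33 on YAMC arrays. The groups did not overlap, and Btc was 3.05-fold higher in Ras cells (1.61 ± 0.15, adjusted p = 2.05e-12). Ereg, epiregulin, rose by 1.42 ± 0.22 and Hbegf, heparin-binding EGF, by 0.96 ± 0.16. Another tested ligand of that receptor, Tgfa, differed by 0.10 and did not pass. Nrg1, neuregulin, a ligand of the receptors ErbB3 and ErbB4, fell by 1.08 ± 0.10, Erbb3 itself by 0.87 ± 0.13 and the EGF receptor gene Egfr by 0.54 ± 0.11. The sheddase gene Adam10 was the other member that fell (−0.28). Other probe sets of Erbb3 and Egfr were at 0.38 and 0.18.

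Secreted matrix proteases rose in part, and Mmp13 was among the 15 largest named rises. Mmp13 (collagenase 3), Mmp10 (stromelysin 2) and Mmp3 (stromelysin 1) cleave collagens, proteoglycans and other matrix proteins, and they lie close together on chromosome 9. AP-1 is a dimer of FOS and JUN family proteins that binds the element TGANTCA, so the 250 bases before each start site are shown, 5′ to 3′ on the plus strand, from RefSeq on GRCm38.p6. Capitals mark TGANTCA, which reads the same on both strands. The regions are chr9:7272264-7272513 for Mmp13, chr9:7502092-7502341 for Mmp10 and chr9:7445572-7445821 for Mmp3.
Mmp13: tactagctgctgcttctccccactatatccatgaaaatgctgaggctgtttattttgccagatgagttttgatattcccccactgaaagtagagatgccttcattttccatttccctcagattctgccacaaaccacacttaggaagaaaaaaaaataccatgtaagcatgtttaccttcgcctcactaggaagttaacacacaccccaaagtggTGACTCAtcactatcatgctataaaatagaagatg
Mmp10: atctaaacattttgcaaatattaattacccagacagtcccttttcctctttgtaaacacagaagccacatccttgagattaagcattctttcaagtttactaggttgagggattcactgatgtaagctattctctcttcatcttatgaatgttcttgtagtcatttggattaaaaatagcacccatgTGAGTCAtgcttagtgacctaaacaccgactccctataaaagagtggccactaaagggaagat
Mmp3: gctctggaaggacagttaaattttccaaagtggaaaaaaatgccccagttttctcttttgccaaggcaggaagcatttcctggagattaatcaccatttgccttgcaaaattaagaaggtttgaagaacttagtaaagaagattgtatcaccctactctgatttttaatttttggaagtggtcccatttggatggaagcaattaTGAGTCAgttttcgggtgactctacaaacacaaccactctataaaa
The element begins at position −35 of Mmp13, −63 of Mmp10 and −46 of Mmp3, counted from the start site. Among 32851 RefSeq promoters of this length, 6.75% hold it. Of the 14 tested protease and inhibitor genes with a promoter there, these 3 do. A match describes the letters and is not shown to be a site in use.

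Mmp13 had 3.89, 7.60 and 8.97 on Ras arrays, against 3.52, 3.61 and 4.01 on YAMC arrays. The array labelled Ras 10 gave the lowest Ras value, inside the YAMC range, and the other 9 Ras arrays lay at 7.28 or above. Mmp13 was 13.6-fold higher in Ras cells (3.77 ± 0.37, adjusted p = 8.15e-12) and 18.1-fold higher without Ras 10 and YAMC 2. Mmp10 had 6.92, 8.81 and 9.39 on Ras arrays, against 6.03, 6.27 and 6.80 on YAMC arrays, without overlap. It was 4.92-fold higher in Ras cells (2.30 ± 0.15). Mmp3 was 2.52-fold higher (1.33 ± 0.16) and overlapped only through Ras 10. YAMC levels of Mmp13 are near the lower end of the table, where background limits the fold that can be measured. The other proteases and inhibitors went both ways. Over the list 6 of 19 tested members rose (31.6%) and 6 fell (31.6%), at a median of 0.05. Adamts5, an aggrecanase, fell by 1.25 ± 0.20, Adamts1 by 0.74 ± 0.15, the membrane-bound protease gene Mmp14 by 0.46 ± 0.10 and the gelatinase gene Mmp2 by 0.39 ± 0.10, with another Mmp14 probe set at −0.15. Timp1, an inhibitor of these proteases, rose by 0.39 ± 0.09.

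The 15 largest rises, taken among genes that passed with all arrays and again without the 2, ranged from 5.49 to 2.47. Hmga2, an architectural chromatin protein of embryonic tissue, had 8.58, 12.65 and 12.80 on Ras arrays, against 8.46, 8.97 and 9.97 on YAMC arrays. Apart from Ras 10 every Ras array was at 12.33 or above. The difference was 8.74-fold (3.13 ± 0.37, adjusted p = 2.08e-09), and 11.2-fold without the 2 arrays. Aldh3a1, an aldehyde dehydrogenase, had 5.89, 8.23 and 8.92 on Ras arrays, against 4.68, 4.87 and 5.18 on YAMC arrays. It did not overlap in any array and was 9.05-fold higher in Ras cells (3.18 ± 0.25, adjusted p = 1.77e-14). Fgf7, keratinocyte growth factor, had 6.21, 9.33 and 10.03 on Ras arrays, against 5.84, 6.10 and 7.0 on YAMC arrays. Ras 10 was the lowest Ras array and YAMC 2 the highest YAMC array, and the other 9 Ras arrays were at 9.03 or above. Fgf7 rose by 2.94 ± 0.27, or 7.70-fold.

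Tcim, a small regulator of Wnt signalling, rose by 3.68 ± 0.29 and Ank, a membrane protein that exports pyrophosphate, by 3.21 ± 0.27, both with no overlap between arrays. Cell surface genes among the 15 were Cadm1, a cell adhesion molecule (3.04 ± 0.32), Olr1, a scavenger receptor for oxidised LDL (2.97 ± 0.28), and Ackr3, an atypical receptor for the chemokine CXCL12 (2.94 ± 0.26). Other Cadm1 probe sets ranged from 0.78 to 3.12. The rest were Mctp2, a calcium-binding membrane protein (3.23 ± 0.31), Ifi209, an interferon-inducible gene (2.75 ± 0.27), Tnnt2, cardiac troponin T (2.70 ± 0.24), and Gda, guanine deaminase (2.47 ± 0.25). Ddx4, a germ-cell RNA helicase, had 4.74, 10.06 and 10.33 on Ras arrays, against 4.30, 4.81 and 5.48 on YAMC arrays, and rose by 4.60 ± 0.48. Ddx4 was also high in the vector population, with a mean of 9.01 in bleo/Neo cells, and the difference of Ras from bleo/Neo (0.42) did not pass. For Mycn, a Myc family gene, 1 probe set had 13.67 to 13.89 on Ras arrays, against 7.53 to 8.50 on 9 YAMC arrays and 13.82 on YAMC 2. Its mean was 14.06 in mp53/Ras, 13.23 in mp53 and 13.51 in bleo/Neo cells. The other Mycn probe sets differed by −0.51 and −0.05 between Ras and YAMC, so no direction is given for Mycn.

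The 15 largest falls ranged from −4.61 to −2.37. Plxdc2, a plexin-domain membrane protein, had 6.24, 6.62 and 10.60 on Ras arrays, against 11.35, 11.58 and 11.95 on YAMC arrays. The highest Ras value is Ras 10, and even that array lay below every YAMC array. Plxdc2 was 24.4-fold lower in Ras cells (−4.61 ± 0.37, adjusted p = 3.18e-14), and its other probe sets were also lower, by 1.39 at the least. Ptprz1, a receptor tyrosine phosphatase, fell by 3.38 ± 0.30, and Pcsk5, a convertase that activates secreted precursors, fell by 2.92 ± 0.24. Both overlapped only through Ras 10. Cnn1, calponin, an actin-binding protein of smooth muscle, had 4.94, 5.20 and 5.79 on Ras arrays, against 6.33, 8.27 and 9.65 on YAMC arrays, the lowest of which is YAMC 2. It was 8.02-fold lower with no overlap (−3.00 ± 0.21, adjusted p = 2.62e-16).

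Genes of the matrix and of growth factor supply made up much of the rest. Col4a4, a basement membrane collagen chain, fell by 3.06 ± 0.30, with other probe sets from −3.37 to −0.76. Mfap5, a protein of elastic microfibrils (−2.38 ± 0.23), and Ltbp2, which binds to the same fibrils (−2.60 ± 0.26), fell as well. Cemip, which degrades hyaluronan, fell by 2.59 ± 0.32, with another probe set at 0.07. So did Pdgfd, a platelet-derived growth factor (−2.40 ± 0.23), and Igfbp2, a binding protein of insulin-like growth factors (−2.37 ± 0.42). C1s1, a complement protease (−2.96 ± 0.26), Plcb4, a phospholipase C (−2.92 ± 0.23), Sh3bgr (−2.67 ± 0.23) and Bex1 (−2.65 ± 0.42) also fell. Plagl1, an imprinted zinc-finger factor, fell by 2.62 ± 0.39 on 1 probe set, while another differed by 0.09. On the array labelled YAMC 2, C1s1 was 5.72 and Ltbp2 4.66, against 7.87 and 7.0 or above on the other 9 YAMC arrays.

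**Figure D3:**
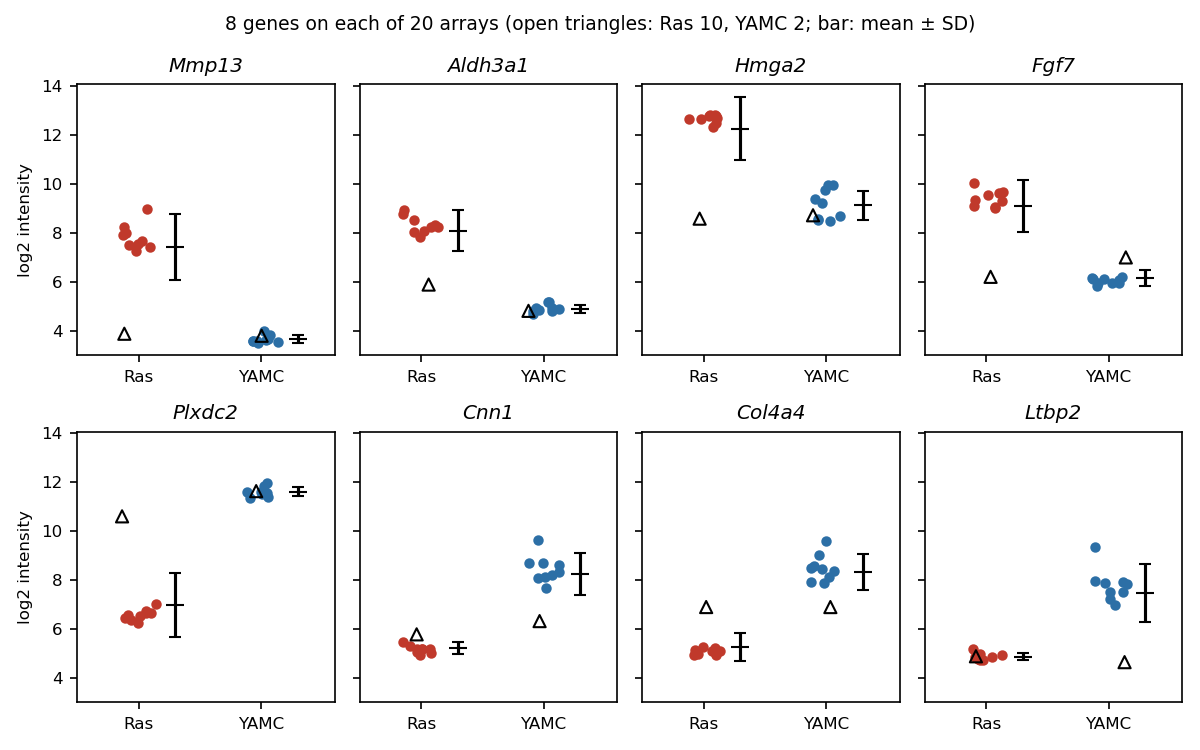
Log2 intensity (y axis) of 8 genes on each of 10 Ras arrays (left, red) and 10 YAMC arrays (right, blue); open triangles are the arrays labelled Ras 10 and YAMC 2, and black bars give mean ± SD over all 10. Mmp13, Aldh3a1, Hmga2 and Fgf7 are higher on Ras arrays and Plxdc2, Cnn1, Col4a4 and Ltbp2 lower, and Ras 10 is the lowest Ras array for Mmp13 (3.89) and the highest for Plxdc2 (10.60).

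Contractile genes and targets of the SRF and YAP factors, which link actin tension to transcription, were lower in Ras than in YAMC cells. Of 19 tested members 17 fell (89.5%) and 0 rose, at a median of −0.72. Myl9, a regulatory myosin light chain, had 9.53, 10.31 and 12.12 on Ras arrays, against 10.66, 12.53 and 12.87 on YAMC arrays. Its overlap came from Ras 10, the highest Ras array, and YAMC 2, the lowest YAMC array. Myl9 fell by 1.87 ± 0.28, and its difference was −2.24 without the 2 arrays. Tagln, transgelin, fell by 1.06 ± 0.13 and the smooth muscle actin gene Actg2 by 1.27 ± 0.32. Ankrd1 (0.23) and Axl (−0.12) did not pass. Against the vector population the same members went both ways, 8 higher and 5 lower in Ras than in bleo/Neo cells, and Myl9 was 3.60 higher. Against mp53 cells 16 of the 19 were lower and 1 was higher.

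Most tested matrix genes fell. Of 23 collagen chains 15 fell (65.2%) and 2 rose (8.7%), at a median of −0.65. Col8a1, a chain of a network collagen, fell by 2.06 ± 0.20. Col4a3, whose product joins that of Col4a4 in basement membranes, fell by 1.92 ± 0.17. Col7a1, the chain of anchoring fibrils, rose by 0.79 ± 0.06 with no overlap between arrays. Of 11 genes that modify and crosslink collagen 10 fell and 1 rose, at a median of −0.51. Lox, the crosslinking lysyl oxidase, had 10.94, 11.63 and 12.63 on Ras arrays, against 12.28, 12.66 and 13.05 on YAMC arrays, and fell by 1.13 ± 0.15. Its overlap came from Ras 10. Of 24 matrix glycoproteins and proteoglycans 16 fell (66.7%) and 2 rose (8.33%), at a median of −0.56. Fbln5, an elastic fibre protein, fell by 1.62 ± 0.14 and Nid1, which joins laminin to collagen IV, by 1.64 ± 0.22, although another Nid1 probe set was at −0.13. Mgp, an inhibitor of calcification, ran the other way, rising by 2.27 ± 0.19 with no overlap. Fibroblast and smooth muscle markers shared these genes in part, and 8 of 10 tested markers fell. The summed linear intensity of 14 such markers had a median of 25730 on Ras arrays, against 46660 on YAMC arrays, with Ras 10 at 41470 and YAMC 2 at 41130. Their part in the result was not tested. Against bleo/Neo 5 collagen genes were higher and 9 lower in Ras cells, with Col8a1 2.48 higher. Of the 24 glycoprotein and proteoglycan genes 5 were higher and 5 lower than in bleo/Neo, at a median of 0.03. Of the 11 genes that modify and crosslink collagen 1 was higher and 4 were lower, at a median of −0.18. Over all genes tested 19.7% were higher and 21.4% lower in that comparison.

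Most tested genes of cholesterol and fatty acid synthesis rose. Of 23 tested members 17 rose (73.9%) and 0 fell, at a median of 0.58, and without the 2 arrays 22 rose. Elovl6, which lengthens fatty acids, had 8.47, 9.70 and 10.11 on Ras arrays, against 7.35, 8.09 and 8.74 on YAMC arrays. The overlap rests on Ras 10 (8.47) and YAMC 2 (8.74). Elovl6 was 2.71-fold higher in Ras cells (1.44 ± 0.16). Scd1, a desaturase, rose by 0.92 ± 0.19. In the sterol branch Nsdhl, a sterol dehydrogenase, rose by 0.89 ± 0.14 and Sqle, squalene epoxidase, by 0.88 ± 0.18. For Sqle YAMC 2 was the highest YAMC array, at 11.82. Fasn (0.27), Acaca (0.36) and Srebf2 (0.23) did not pass with all arrays.

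Genes of sugar use rose in larger part than they fell. Of 21 tested genes of glycolysis and sugar transport 13 rose (61.9%) and 2 fell (9.52%), at a median of 0.32. Aldoc, an aldolase, had 8.43, 8.96 and 9.79 on Ras arrays, against 6.52, 7.67 and 7.97 on YAMC arrays, with no overlap, and rose by 1.50 ± 0.19. The lactate exporter gene Slc16a3 rose by 1.04 ± 0.18, the enolase gene Eno3 by 0.97 ± 0.14 and the glucose transporter gene Slc2a1 by 0.57 ± 0.13. A second glucose transporter gene, Slc2a3, fell by 2.12 ± 0.21. Of 22 hypoxia-response genes 8 rose (36.4%) and 3 fell (13.6%), at a median of 0.03, and without the 2 arrays 7 rose and 5 fell. Egln3, a prolyl hydroxylase that marks HIF for destruction, rose by 1.31 ± 0.15 and Pdk1, which restrains entry of pyruvate into mitochondria, by 1.17 ± 0.16. Bnip3, a receptor for removal of mitochondria, had 9.57, 10.69 and 11.98 on Ras arrays, against 9.16, 9.49 and 10.56 on YAMC arrays, and overlapped with and without the 2 arrays. It rose by 1.15 ± 0.17. HIF binds the core ACGTG, so the 250 bases before the Bnip3 start site are shown 5′ to 3′, from RefSeq on GRCm38.p6, minus strand of chr7:138909507-138909756, with ACGTG and its reverse complement CACGT in capitals, which overlap here.
Bnip3: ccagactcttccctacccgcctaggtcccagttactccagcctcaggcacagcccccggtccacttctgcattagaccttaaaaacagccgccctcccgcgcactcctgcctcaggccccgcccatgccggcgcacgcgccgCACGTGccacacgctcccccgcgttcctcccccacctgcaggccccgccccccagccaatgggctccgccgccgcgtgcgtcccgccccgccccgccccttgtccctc
Of all promoters 16.6% hold this core on either strand, and so do 12 of the 20 hypoxia-response genes that have a promoter there. Of these genes 6 rose, 2 fell and 4 did not pass, and a match is a description of the letters only.

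Of 30 tested genes of the unfolded protein and amino acid responses 14 fell (46.7%), 1 rose (3.33%) and 15 did not pass, at a median of −0.35. Slc7a11, the cystine importer, had 5.20, 5.44 and 7.63 on Ras arrays, against 6.36, 7.11 and 8.19 on YAMC arrays. The groups overlapped with and without the 2 arrays, and Slc7a11 fell by 1.33 ± 0.23. Trib3, a pseudokinase induced by ATF4, fell by 0.96 ± 0.27, the stress factor gene Ddit3 by 0.96 ± 0.29 and Ppp1r15a, a phosphatase subunit that restarts translation, by 0.93 ± 0.28. For Slc7a11, Trib3, Ddit3 and Ppp1r15a YAMC 2 was the highest YAMC array. Herpud1, part of the degradation system of the endoplasmic reticulum, fell by 0.89 ± 0.17 and the amino acid transporter gene Slc7a5 by 0.83 ± 0.12. Xbp1, a transcription factor of the response, rose by 0.41 ± 0.13, although another probe set was at −0.01. ATF4 dimers bind the core TTGCATCA of amino acid response elements. The 250 bases before the Slc7a11 start site, from RefSeq on GRCm38.p6, minus strand of chr3:50443614-50443863, hold it on both strands, shown in capitals 5′ to 3′ as TTGCATCA and its reverse complement TGATGCAA.
Slc7a11: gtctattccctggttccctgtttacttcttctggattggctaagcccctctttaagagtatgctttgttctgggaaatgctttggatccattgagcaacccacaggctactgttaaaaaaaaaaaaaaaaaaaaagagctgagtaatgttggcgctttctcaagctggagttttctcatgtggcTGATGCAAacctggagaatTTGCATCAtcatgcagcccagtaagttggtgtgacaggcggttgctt
The matches begin at −66 and −47. Of all promoters 0.791% hold the core on either strand, and Slc7a11, Herpud1 and Chac1 are the 3 of 25 members with a promoter there that do. Chac1, which degrades glutathione, differed by −0.29 and did not pass.

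A list of p53 targets also held the related genes Trp63 and Trp73 and the regulator gene Cdkn2a. Of its 31 tested members 14 fell (45.2%), 1 rose (3.23%) and 16 did not pass, at a median of −0.18. The member that rose was Trp73 (0.45). Pmaip1, which encodes the proapoptotic protein NOXA, had 8.30, 8.73 and 9.84 on Ras arrays, against 9.91, 10.78 and 11.36 on YAMC arrays, and was 4.02-fold lower without overlap (−2.01 ± 0.21, adjusted p = 5.66e-11). Gadd45a, a growth arrest gene, fell by 0.98 ± 0.28. Mdm2, which targets p53 for destruction, fell by 0.19 ± 0.07. Cdkn1a, the p21 inhibitor of cyclin kinases, was high in both populations at 13.66 and 13.73 and its difference of −0.06 ± 0.03 did not pass, although −0.09 passed without the 2 arrays (adjusted p = 0.025). Another Cdkn1a probe set differed by 0.001. Of 21 G1 genes 5 rose and 4 fell, and of 29 replication and mitosis genes 5 rose and 6 fell. Rb1, the retinoblastoma gene, fell by 0.72 ± 0.09, Birc5, survivin, rose by 0.65 ± 0.10, and the replicative helicase genes Mcm5 and Mcm7 fell by 0.40 ± 0.08 and 0.34 ± 0.08, with another Mcm7 probe set at −0.04. Over apoptosis and survival genes 9 of 25 rose and 8 fell.

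Of 24 ribosomal and translation genes 11 rose (45.8%) and 3 fell (12.5%), none by 2-fold, with Eif4e, the cap-binding factor, up by 0.48 ± 0.14. Of 26 antioxidant and glutathione genes 10 rose (38.5%) and 2 fell (7.69%), and without Ras 10 and YAMC 2 11 rose and 4 fell. Nfe2l2, the NRF2 factor that induces many of them, rose by 0.66 ± 0.08 with no overlap, and Sod3, an extracellular superoxide dismutase, rose by 1.46 ± 0.35. Of 13 prostanoid and lipid signalling genes 7 rose (53.8%) and 2 fell (15.4%), including Pla2g7, which hydrolyses platelet-activating factor, up by 1.86 ± 0.18, and Sphk1, sphingosine kinase, up by 1.02 ± 0.11. Mitochondrial genes were 3 higher and 7 lower of 23, and Uqcrc1, a complex III subunit, fell by 0.48 ± 0.08. In protein kinase A and G protein signalling 6 of 18 rose and 2 fell, and without the 2 arrays 6 rose and 4 fell. The 2 that fell with all arrays were Akap12, a kinase scaffold (−1.38 ± 0.18), and Adcy3, an adenylyl cyclase (−1.22 ± 0.11, another probe set −0.13).

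Of 28 Wnt pathway genes 13 fell (46.4%) and 2 rose (7.14%). Rspo3, an R-spondin that amplifies Wnt signals, had 5.15, 5.46 and 7.98 on Ras arrays, against 7.70, 7.99 and 8.12 on YAMC arrays, with Ras 10 alone inside the YAMC range. It fell by 2.25 ± 0.26. Rspo1 fell by 1.57 ± 0.30, and the genes of secreted Wnt antagonists fell too, Dkk2 (−2.27 ± 0.28) and Sfrp2 (−1.54 ± 0.37). Of 29 TGF-beta and BMP genes 13 fell (44.8%) and 5 rose (17.2%). Inhba, an activin subunit, fell by 1.04 ± 0.11 with no overlap, Tgfb2 by 1.13 ± 0.18 and Bmp6 by 1.16 ± 0.12, while Tgfb3 rose by 0.94 ± 0.13 and the activin antagonist gene Fst by 0.94 ± 0.15. Notch genes were nearer the background, 3 of 17 higher and 5 lower, with falls of the target Hey2 (−1.48 ± 0.13) and the receptor gene Notch3 (−1.15 ± 0.14). In guidance families 7 of 30 rose and 10 fell. Epha4, an ephrin receptor, rose by 2.04 ± 0.18 (another probe set 0.18), and the repellent genes Sema3d and Slit2 fell by 2.22 ± 0.23 and 1.64 ± 0.14. Of 22 genes of the FGF, HGF, PDGF and IGF axes 4 rose and 8 fell, with a fall of the receptor gene Fgfr1 (−1.98 ± 0.18, another probe set −0.59). The integrin gene Itga1, a collagen receptor subunit, fell by 2.34 ± 0.27.

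Of 26 tested chemokine and cytokine genes 9 rose (34.6%) and 6 fell (23.1%). Ccl9 had 6.42, 7.60 and 8.27 on Ras arrays, against 5.10, 5.35 and 5.56 on YAMC arrays, and Il6 had 5.98, 6.60 and 7.43 on Ras arrays, against 4.30, 4.72 and 5.10 on YAMC arrays. Neither overlapped, and Ccl9 rose by 2.21 ± 0.14 and Il6, interleukin 6, by 1.92 ± 0.17. The monocyte attractant gene Ccl2 rose by 1.35 ± 0.18, Cxcl10, an interferon-inducible chemokine, by 0.96 ± 0.20, and Il6st, the shared signalling receptor of interleukin 6 cytokines, fell by 0.85 ± 0.14. Of 24 genes of antigen presentation 13 fell (54.2%) and 2 rose (8.33%), and the falls were led by the MHC class II genes H2-Aa (−2.02 ± 0.27), H2-Eb1 (−1.14 ± 0.21) and Cd74, the invariant chain (−1.06 ± 0.24). Another H2-Aa probe set was at −0.36. In Ras cells 8 of these 24 genes were higher and 6 lower than in bleo/Neo, at a median of 0.11. Over all genes tested these shares were 19.7% and 21.4%. Compared with mp53 cells 5 were higher and 3 lower, and 7 and 4 without Ras 10, YAMC 2, mp53 8 and mp53 10. Bleo/Neo cells had 4 of the 24 higher and 8 lower than YAMC cells. Between Ras and YAMC type I interferon genes were called in few cases, 2 of 22 higher and 3 lower. Without Ras 10 and YAMC 2 3 were higher and 5 lower.

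Both populations showed keratins of simple epithelia, while many markers of differentiated colon were dim. Of 21 colon epithelium markers 12 were below the table median on all 20 arrays, and Cdh1, Cdx2, Vil1 and 8 others did not reach the tested set. The markers carried by both populations included Krt8 and Krt18. Krt8 had 12.69, 12.80 and 13.05 on Ras arrays, against 11.40, 11.63 and 12.42 on YAMC arrays, and Krt18 had 11.76, 12.26 and 12.48 on Ras arrays, against 9.94, 10.33 and 11.84 on YAMC arrays. Krt8 did not overlap, and Krt18 overlapped only through Ras 10 and YAMC 2. They rose by 1.10 ± 0.10 and 1.69 ± 0.14. In a list of squamous and neural markers 6 of 13 rose and 5 fell, at a median of 0.14. Among its keratinocyte genes Krt15 rose by 2.42 ± 0.21, involucrin, Ivl, by 2.41 ± 0.36, Sprr1a by 1.39, Krt10 by 0.77 and loricrin, Lor, by 0.25 ± 0.10. Krt14 fell by 0.39 ± 0.14, and Krt5 (0.06) and Trp63 (0.14) did not pass. In the vector population the median difference of the 13 from YAMC cells was 0.84. Against bleo/Neo 1 of the 13 was higher and 6 were lower in Ras cells, at a median of −0.15. Over all genes tested 19.7% were higher and 21.4% lower in that comparison. The desmosome gene Pkp2 fell by 1.38 ± 0.17. By number of calls, mesenchymal transition genes stayed near the background, 5 of 20 higher (25%) and 4 lower (20%). By at least 2-fold 4 of the 20 rose and 0 fell, beside 1.3% and 1.68% of all genes tested. The largest of these rises was that of Hmga2 (3.13), described above. The transcription factor genes Twist2 (1.65 ± 0.16) and Snai2 (1.05 ± 0.12) and the calcium-binding protein gene S100a4 (1.94 ± 0.25) rose, Vim (−0.02 ± 0.07, other probe sets −0.04 and 0.02) did not pass, and Cdh11, a mesenchymal cadherin, fell by 0.55 ± 0.22, a call that was lost when arrays were recentred on the median of the genes tested. Among developmental factors Foxa2, of endodermal organs, rose by 1.72 ± 0.18 and Satb1, a chromatin organiser, fell by 1.80 ± 0.25. Of 10 tested colon markers 5 rose and 1 fell. The summed linear intensity of all 21 had a median of 14930 on Ras arrays, against 6683 on YAMC arrays. Most of it came from Krt8, Krt18 and Krt19, whose sum had a median of 13380 on Ras arrays, against 5194 on YAMC arrays. For all 21 the median was 17380 in mp53/Ras, 11660 in bleo/Neo and 9917 in mp53 cells. Of the 10 tested colon markers 4 were higher and 4 lower in Ras than in bleo/Neo cells. The summed intensity of 10 immune markers had a median of 1687 on Ras arrays, against 1444 on YAMC arrays. For 10 endothelial markers the median was 886.5 on Ras arrays and 1029 on YAMC arrays. The part of other cell types in these results was not tested.

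**Figure D4:**
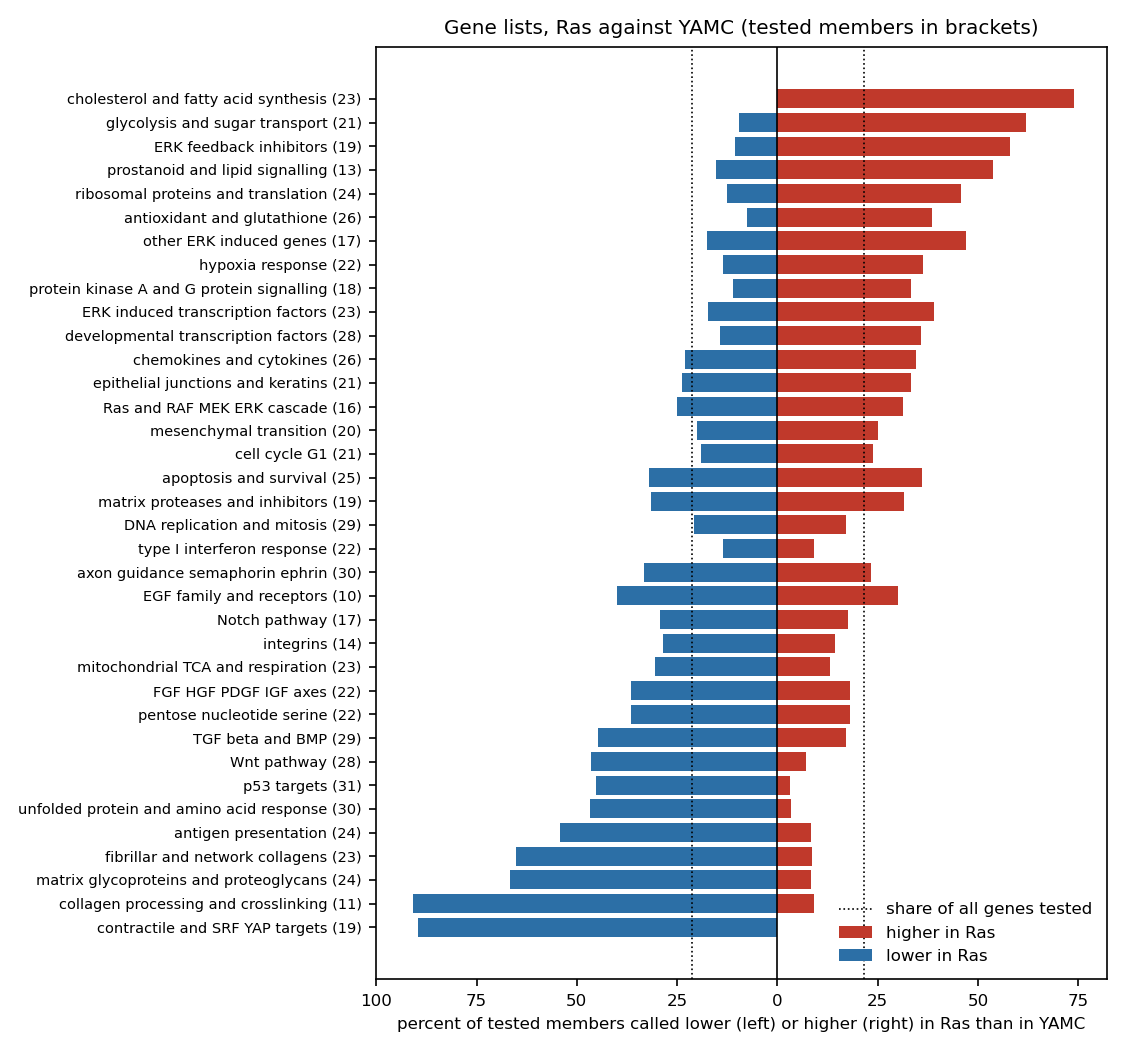
Share of the tested members of each gene list (number in brackets) called higher in Ras than in YAMC cells (red, to the right) or lower (blue, to the left), in percent; dotted lines mark the share of all 12883 genes, 21.5% higher and 21.2% lower. Cholesterol and fatty acid synthesis stands at 73.9% higher and 0% lower, and contractile genes at 0% higher and 89.5% lower.

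To see which differences also set Ras cells apart from the other infected populations, Ras was tested against mp53 and against bleo/Neo in the same fit; these comparisons share the Ras arrays. Against mp53 cells 4243 genes were called (32.9%), 2157 higher (16.7%) and 2086 lower (16.2%), 338 of them by at least 2-fold (2.62%), 174 higher (1.35%) and 164 lower (1.27%). Without Ras 10, YAMC 2, mp53 8 and mp53 10 that count was 5116 (39.7%), 2602 higher (20.2%) and 2514 lower (19.5%), and 514 by at least 2-fold (3.99%), 260 higher (2.02%) and 254 lower (1.97%). Against bleo/Neo cells 5301 were called (41.1%), 2544 higher (19.7%) and 2757 lower (21.4%), 522 of them by at least 2-fold (4.05%), 269 higher (2.09%) and 253 lower (1.96%). Among genes higher in Ras than in both YAMC and mp53 cells, the largest differences from mp53 were in Ddx4 (3.77), Hmga2 (3.22), Mmp13 (3.07), Mctp2 (2.99) and Aldh3a1 (2.95). Among those lower in both, they were in Plagl1 (−4.09), Plxdc2 (−3.79), Igfbp2 (−3.30), Ptprz1 (−2.95) and Sfrp2 (−2.82). Both rankings used all arrays. Against bleo/Neo Hmga2 (4.76), Mmp13 (3.12), Aldh3a1 (2.83) and Mctp2 (2.35) were also higher and Plxdc2 (−4.40), Ptprz1 (−2.37) and Igfbp2 (−1.48) were lower. Plagl1 ran the other way there, 1.96 higher in Ras cells.

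Several of the largest differences from YAMC did not separate Ras from the vector population. C1s1 averaged 5.33 ± 0.19 in Ras, 5.42 in mp53/Ras, 5.69 in mp53, 5.54 in bleo/Neo and 8.29 ± 1.04 in YAMC cells (SD, n = 10). Ltbp2 averaged 4.88 ± 0.13 in Ras, 4.68 in mp53/Ras, 5.07 in mp53, 4.91 in bleo/Neo and 7.48 ± 1.18 in YAMC cells. Both were thus low in each infected population, and Ras differed from bleo/Neo by −0.21 for C1s1 and −0.03 for Ltbp2, neither of which passed. Plcb4 (0.32) and Sh3bgr (−0.14) did not pass against bleo/Neo either but were lower in Ras than in mp53 cells, by 2.62 and 1.86. Among the signalling ligands, Btc (0.29) and Ereg (0.28) did not pass against bleo/Neo, whereas Hbegf (0.82) did. Of the inhibitors that ERK induces, 11 were higher and 2 lower than in bleo/Neo, and 12 higher and 1 lower than in mp53 cells. Cholesterol and fatty acid genes were higher in 11 and lower in 1 of 23 against bleo/Neo, and higher in 14 and lower in 0 against mp53. Type I interferon genes were higher in 12 and lower in 0 of 22 against mp53, and higher in 8 and lower in 4 against bleo/Neo. Without Ras 10, YAMC 2, mp53 8 and mp53 10 the inhibitors that ERK induces were higher in 12 and lower in 3 against mp53. Cholesterol and fatty acid genes were then higher in 18 and lower in 0. For type I interferon genes these counts were 16 and 0. The Y-linked gene Eif2s3y averaged 8.28 in Ras, 3.73 in bleo/Neo and 8.38 in YAMC cells, so a comparison with bleo/Neo also sets populations with different Y-linked RNA side by side. Smaller differences were present against YAMC, where Xist was 0.77 higher and the Y-linked gene Uty 0.61 lower in Ras cells, both called. Eif2s3y (−0.10) and the Y-linked gene Kdm5d (0.08) did not pass there. Of these 4 genes 1 was higher and 3 were lower in Ras than in mp53 cells.

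**Figure D5:**
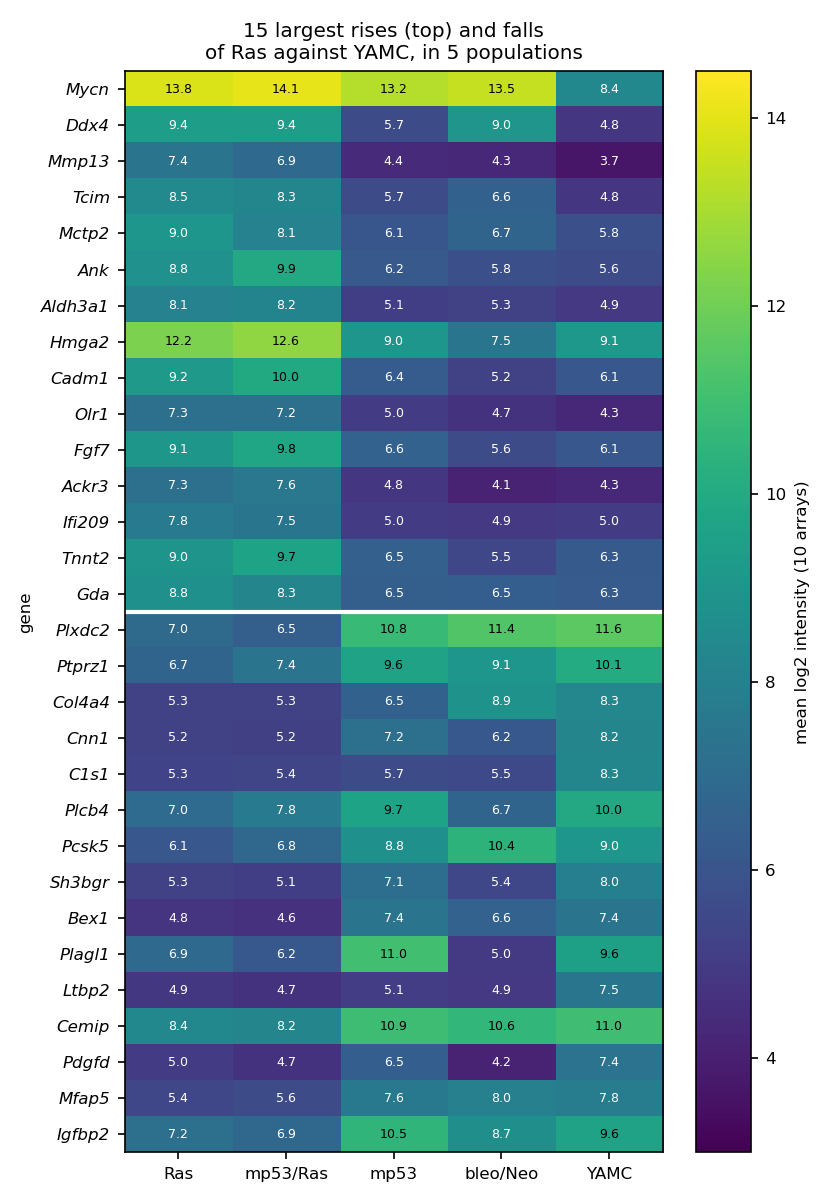
Mean log2 intensity over 10 arrays (colour and printed value) of the 15 largest rises (top) and 15 largest falls (bottom) of Ras against YAMC, in 5 populations. C1s1 averaged 5.33 in Ras and 8.29 in YAMC cells and lay between 5.42 and 5.69 in the other populations.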

How the data were processed

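The authors deposited 1 table of intensities on a linear scale for 45101 probe sets of an Affymetrix mouse genome array on 50 arrays, of which 45037 probe sets had values. Per the submitters' processing notes the tool was RMA, its version not given. Array medians lay between 86.4 and 86.7. Polysomal RNA came from 10–50% sucrose gradients, and 5 µg was labelled, per the labels' protocols. The table holds no scan dates.

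The deposited intensities were taken to log2 here, with no offset. Gene symbols came from the platform annotation: 34945 probe sets had 1 symbol, 932 several and 9160 none, and only the first kind was used. Each of 18193 genes was represented by its brightest probe set, and 12883 genes above the table median (6.44) on at least 10 of 50 arrays were tested. limma (3.58.1, R 4.3.3) was fitted to all 50 arrays with 1 coefficient per group, intensity trend and Benjamini-Hochberg adjustment. The fit for Ras against YAMC was tried on simulated data of 12883 genes, 100 changed by 0.5 and 100 by 1.0 (log2). The fit recovered 85% of the changes of 0.5 and 99% of those of 1.0, with 8 false calls in 192. The simulated noise was normal and independent between arrays, so it held no outlying arrays and no deviations shared by same-numbered arrays. Recovery with such features, or with a larger share of changed genes, as called here, was not tested.

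Genes named are the 15 largest rises and falls called with and without Ras 10 and YAMC 2 (predicted names passed over), up to 4 members of each list called in each direction, check genes, and the 5 largest each way against mp53. Other members that are named (those that did not pass, Lor, and the motif-bearing Herpud1 and Chac1) were chosen after their values were seen. Another probe set is given where it shows under 0.4 of the change or the opposite sign. Members and gene lists were chosen with earlier results of these data known. Lists are described by counts and medians, with no test of a list. Promoter sequences are RefSeq's for GRCm38.p6, and the arrays' probe positions were not used. Alternatives were each array left out, 20 arrays only, no filter, another choice of probe set, no trend, array weights, recentring and the replicate number as a block.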

Additional observations from a re-analysis of the deposited data

Results flagged for a closer look

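Among 31 of the genes with the largest differences, 34 group values came from an array that stood apart from the other 9 of its label by more than Dixon's limit for a gap over the range, 27 from Ras 10 and 7 from YAMC 2. Chance alone does this in about 1 in 20 groups. These genes were picked for large differences, so their flags cannot be set against that rate. Over all 12883 genes some array stood apart among the Ras arrays in 13.1% and among the YAMC arrays in 10.1%. Values are log2 intensities.

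The array labelled Ras 10 was low for Mycn (13.67), Ddx4 (4.744), Mmp13 (3.888), Tcim (5.743), Mctp2 (5.87), Ank (5.924), Aldh3a1 (5.892), Hmga2 (8.579), Cadm1 (6.458), Olr1 (5.183), Fgf7 (6.207), Ackr3 (4.84), Ifi209 (4.887), Tnnt2 (6.782) and Gda (6.551). It was high for Plxdc2 (10.599), Ptprz1 (9.677), Col4a4 (6.902), Plcb4 (9.476), Pcsk5 (8.692), Sh3bgr (6.854), Bex1 (9.201), Plagl1 (10.541), Cemip (11.584), Mfap5 (6.673), Igfbp2 (11.128) and Sfrp2 (10.355).

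The array labelled YAMC 2 was low for Ackr3 (3.854), C1s1 (5.716), Ltbp2 (4.656) and Pdgfd (5.798) and high for Mycn (13.819), Fgf7 (6.999) and Plcb4 (10.352).

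Over all 12883 genes Ras 10 stood apart from the other Ras arrays in 9.56% and YAMC 2 from the other YAMC arrays in 5.42%, against at most 0.947% for any other Ras array and 1.89% for any other YAMC array. How these arrays came to differ was not tested.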

How the results depend on the processing

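Leaving out 1 array at a time gave 5173 to 5856 called genes for Ras against YAMC (373 to 474 at least 2-fold), 3812 to 4760 against mp53 (322 to 423) and 5030 to 5578 against bleo/Neo (508 to 575). Leaving out Ras 10, YAMC 2, mp53 8 and mp53 10 together gave 514 genes at least 2-fold against mp53, where all arrays gave 338, and array weights gave 6779 called genes there, where equal weights gave 4243. For Ras against YAMC the count was 5003 with the 20 arrays alone, 7603 with no filter on dim genes, 5045 with the mean of a gene's probe sets, 6265 with array weights and 5589 when recentred on the median of the genes tested. Of 282 named genes 274 kept their direction and their side of the threshold without Ras 10 and YAMC 2, and Cdkn1a newly passed. The 7 that no longer passed were Tyms, Igf1, Wnt4, Rbl2, Tbx20, Sdha and Lgals3, and only Lgals3 is given above as changed. Recentring lost 7 (Tek, Sod1, Rbl2, E2f2, Itgb5, Cdh11 and Lpar1). With the mean of all probe sets a comparison was made for 260 of the 282 named genes. Of these 242 kept their calls and 17, not named here, no longer passed. E2f2, a cell cycle factor gene, turned to 0.0857, where its brightest probe set gave −0.15, and the cause was not tested. With the replicate number as a block, 6149 genes were called against YAMC, 4850 against mp53 and 5902 against bleo/Neo, and all 282 named genes kept their calls. Of 84 list counts 5 moved by over 1.5 times under the block. Members lower were then 10 for replication and mitosis, 4 for glycolysis, 5 for hypoxia and 5 for other ERK-induced genes. Members higher were 2 for the p53 list. Without Ras 10 and YAMC 2 4 list counts moved, as given above. Same-numbered Ras and YAMC arrays correlated in their deviations between −0.217 and 0.613, over 0.1 in 7 of 10 numbers. Of the Ras arrays 5 correlated best with the YAMC array of their own number. Arrays of some numbers thus shared deviations, the source of which was not tested. The main fit did not take the numbers as pairs because no label says what they mark. Levels near the lower end of the table, such as Mmp13 in YAMC cells, are limited by background.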
